A study of Mus musculus with 12 samples.

Results

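The cytosolic ribosomal protein genes encode the protein part of the ribosomes that translate nuclear mRNA. They were taken by symbol, as names that start with Rpl or Rps and a digit, or with Rplp or Rpsa, without the Rps6k kinases and without names that contain -ps. Of 94 such names among the 56735 genes of the table, 89 had at least 10 counts in at least 4 of the 12 libraries and are described here, 52 of large-subunit and 37 of small-subunit type. The other 5 were Rpl3l, Rpl6l, Rpl10l, Rps12l1 and Rps23rg1, none of which reached more than 12 counts in any library. Rps19bp1 matches by name but encodes a protein that binds Rps19, and Fau and Rack1, for example, encode ribosomal proteins whose symbols do not match.

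Bulk RNA-seq was made from CD206+ macrophages of the leptomeninges and perivascular spaces (sdCAMs), sorted from brains without choroid plexuses of Mrc1CreERT2/CreERT2:R26tdT/tdT mice. All mice, controls included, carried both alleles and received tamoxifen, so that cells in which the Mrc1 locus drove CreERT2 at that time, and their progeny, bear the tdTomato (tdT) mark, whereas tdT- cells were not marked and came later or escaped recombination. Mice were 10 ± 3 weeks old at the first gavage, were given vehicle or BLZ945, an inhibitor of the CSF-1 receptor, at 200 mg per kg daily for 7 days, and sorting followed 8 weeks after that. The groups were tdT+ cells of vehicle mice, tdT+ cells of BLZ945 mice and tdT- cells of the same BLZ945 mice, with 4 mice each that are labelled F1, F2, M1 and M2, and values below are given in that order.

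Each ribosome joins a small subunit, which binds the mRNA and decodes it, to a large subunit, which forms the peptide bond and carries the acidic stalk that recruits elongation factors. Most ribosomal proteins are present once per ribosome, and their genes are among the most highly expressed in any growing cell. Their mRNAs typically begin with a C and a run of pyrimidines (a 5' terminal oligopyrimidine tract), through which mTOR signalling sets their translation. Transcription of the genes and of the ribosomal RNA is raised by Myc.

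The pyrimidine tract is the sequence feature that these genes share and that the choice by symbol did not use. The RefSeq promoter table (GRCm38.p6) held 66 of the 89 genes. Within 50 bases either side of the annotated start, 53 of the 66 (80.3%) had a run of at least 8 pyrimidines that begins with C, against 32.4% of the 9879 genes past the count filter with an entry. The longest such run had a median of 10 bases in the ribosomal protein genes and of 6 in genes past the filter. Windows of 30 bases around the run are printed for 8 genes called between groups in the fits below, and then for 4 that were not, to show how far the starts are alike. The printed genes were picked, and the 4 are paralogues and Rps19bp1, so the windows do not compare called with uncalled genes. Rpl34 and Rpl27a, called in no comparison with all 12 libraries, had runs of 20 bases. Capitals mark the longest run that begins with C inside the 50-base limit, which cut off bases upstream in Rpl26 and, in Rps19bp1, a longer run.
Rpl13 (large subunit; chr8:123102324-123102353, + strand): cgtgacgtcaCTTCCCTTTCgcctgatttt
Rpl35 (large subunit; chr2:39005115-39005144, - strand): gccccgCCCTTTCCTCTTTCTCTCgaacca
Rpl18 (large subunit; chr7:45718062-45718091, + strand): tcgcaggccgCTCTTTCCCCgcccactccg
Rpl26 (large subunit; chr11:68901509-68901538, + strand): cccaacctCCTCTCCCCTTTCgctccgaga
Rpl4 (large subunit; chr9:64173406-64173435, + strand): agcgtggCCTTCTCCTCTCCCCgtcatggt
Rps9 (small subunit; chr7:3704025-3704054, + strand): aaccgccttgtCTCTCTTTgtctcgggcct
Rps19 (small subunit; chr7:24884624-24884653, + strand): cccgtcgttCCCTTTCCCCTggctggcagc
Rplp0 (stalk; chr5:115559468-115559497, + strand): gaccgcctggttCTCCTataaaaggcacac
Rps27l (paralogue of Rps27; chr9:66946054-66946083, + strand): cccgcctccaCTCCTCTCCactcctccccg
Rpl22l1 (paralogue of Rpl22; chr3:28805500-28805529, + strand): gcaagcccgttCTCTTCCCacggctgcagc
Rpl7l1 (paralogue of Rpl7; chr17:46782670-46782699, - strand): gtcgaggcgggCCTCTCTaccccgcccggt
Rps19bp1 (binds Rps19; chr15:80264335-80264364, - strand): ccctgagctcctgCTCCagtttctgccgag

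Rplp0, which was called, had a longest run of 5 bases within 50 bases of its annotated start, and a tract outside that window would be missed. Rps27l and Rpl22l1 had runs of 9 and 8 bases without a called difference. Relative to the annotated start the run began at -43 in Rps19, -16 in Rpl13 and 26 in Rpl4, so that it need not be the first bases of the mRNA. The run is a description of these windows and does not show how a gene is translated.

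The libraries held between 19969308 and 23395058 counts. Intervals from counts cover counting error only, since the cDNA was amplified by PCR. The sorted cells had border macrophage markers (6 genes) in every group, at a summed 167887 to 195067 normalised counts in vehicle, 199116 to 255845 in BLZ945 tdT+ and, lowest, 69063 to 114387 in tdT- libraries. The tdTomato entry had 0 counts in all libraries, so the mark itself could not be checked. The sum of 5 microglia markers lay between 35473 and 55005 in the tdT+ libraries and between 100601 and 223328 in tdT- libraries. In the tdT- library F2 the microglia sum (107203) was above the border macrophage sum (69063). The tdT- library F2 stood apart, with 422762 normalised counts of 5 neutrophil markers against at most 69.4 in any other, 50756 of 4 monocyte markers against at most 6650, and 36176 of 5 red blood cell markers against at most 100 in the other tdT- libraries and up to 15807 in tdT+ libraries. The B cell list (5 genes, Pax5 at 0 throughout, mostly Ighm) summed to 6723 to 10094 in vehicle, 5134 to 6149 in BLZ945 tdT+ and 9007 to 11470 in tdT- libraries. T cell markers reached at most 108, endothelial markers at most 313, fibroblast markers at most 288 and dendritic cell markers at most 6531 normalised counts in any library. The part of other cells in the results below was not tested, and counts of calls and medians over the ribosomal protein genes are given with and without tdT- F2.

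The 89 genes took between 1.07% and 2.00% of the counts of a library. Their shares were 1.69%, 1.41%, 1.64% and 1.74% in vehicle tdT+ cells, 1.15%, 1.21%, 1.07% and 1.18% in BLZ945 tdT+ cells, and 1.5%, 2.00%, 1.24% and 1.22% in tdT- cells. All 4 vehicle libraries and all 4 tdT- libraries lay above all 4 BLZ945 tdT+ libraries, and the tdT- libraries spanned the vehicle range. At the closest, tdT- M2 was at 1.22% and BLZ945 tdT+ F2 at 1.21%. As a share of the genes past the filter, without mitochondrially encoded genes, both were at 1.22%. The highest tdT- share was that of F2, the library with neutrophil markers, and the other tdT- libraries lay between 1.22% and 1.5%. The group means were 1.62% ± 0.146, 1.15% ± 0.0602 and 1.49% ± 0.363 (SD, n = 4). For a single library the exact 95% Clopper-Pearson interval was far narrower than the spread between mice (1.99% to 2.01% in tdT- F2). No test is given for a sum over chosen genes. In bulk RNA of sorted cells, fewer cells of a type and less RNA per cell cannot be told apart.

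**Figure D1:**
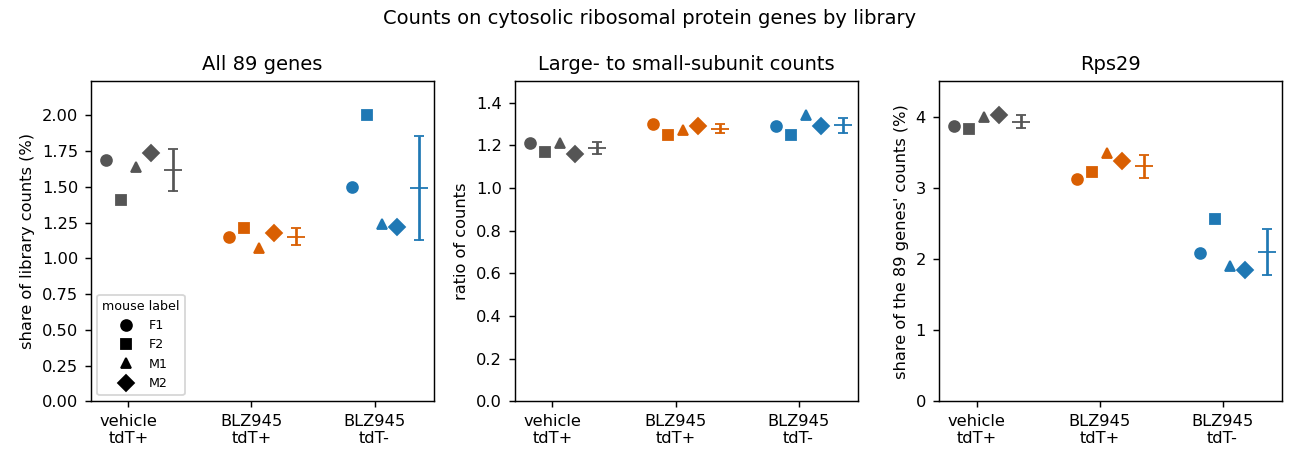
Points are libraries by group (symbols for mice F1, F2, M1 and M2), with the mean and SD of 4 beside them. The left panel gives the share of library counts on the 89 genes in percent (all BLZ945 tdT+ libraries at 1.21% or below), the middle panel the ratio of large- to small-subunit counts, and the right panel Rps29 as a percentage of the counts on the 89 genes, which does not overlap between any of the groups.

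The first comparison asked how tdT+ cells that lived through BLZ945 differed from tdT+ cells of vehicle mice. Ribosomal protein genes were lower in the BLZ945 tdT+ cells, with a median log2 fold change of -0.48 against 0.03 over all genes tested. The fold change was below 0 for 86 of the 89 genes, and the quartiles were -0.54 and -0.35. In DESeq2, 8 genes were called lower at an adjusted p of at most 0.05 and 0 higher, where 0.477% of all genes were called lower and 0.484% higher. The groups did not overlap for 55 genes that were lower and for 1 that was higher, Rps19bp1, against 3.14% and 3.58% of all genes. edgeR called 0 of the 89 (0.0146% of all genes lower, 0.051% higher). At an unadjusted p under 0.05 edgeR had 59 lower and 0 higher, against 427 and 527 of all 13724 genes. DESeq2 had 60 and 0 at that level, against 464 and 645 of all genes. In simulated counts, scored only for tdT- against BLZ945 tdT+ cells, edgeR made few calls in unchanged genes and DESeq2 many. Single DESeq2 calls that edgeR does not share are taken as weaker here too, though this comparison was not scored.

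Rps14 and Rps9, both of the small subunit, and Rpl26, a large-subunit protein near the exit tunnel, were among the called genes with the smallest p. Rps14 stood at 9549, 7223, 8333 and 8459 normalised counts in vehicle, 5708, 6695, 5397 and 5695 in BLZ945 tdT+ and 8570, 9003, 6830 and 7201 in tdT- libraries. All BLZ945 tdT+ libraries were below all others, and the log2 fold change against vehicle was -0.51 ± 0.13 (SE; DESeq2 adjusted p = 0.0083). The call was lost without vehicle F1 or any of BLZ945 tdT+ F1, M1 and M2.

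Rps9 stood at 10455, 8369, 10225 and 10262 in vehicle, 6901, 7837, 5986 and 7233 in BLZ945 tdT+ and 9542, 11056, 8340 and 9244 in tdT- libraries (-0.49 ± 0.12, DESeq2 adjusted p = 0.0087). Rpl26 stood at 3509, 3268, 3795 and 3243, at 2617, 2464, 2293 and 2454, and at 3078, 3746, 2766 and 3098 (-0.49 ± 0.12, DESeq2 adjusted p = 0.011). For both genes, too, no BLZ945 tdT+ library reached another group. The stalk proteins Rplp0 and Rplp1 (-0.43 and -0.48) and Rps29 (-0.70) were also called. Of 12 fits that each left out 1 library, Rps9 and Rpl26 kept the call in 8, Rplp1 in 6, and Rplp0 and Rps29 in 4.

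**Figure D2:**
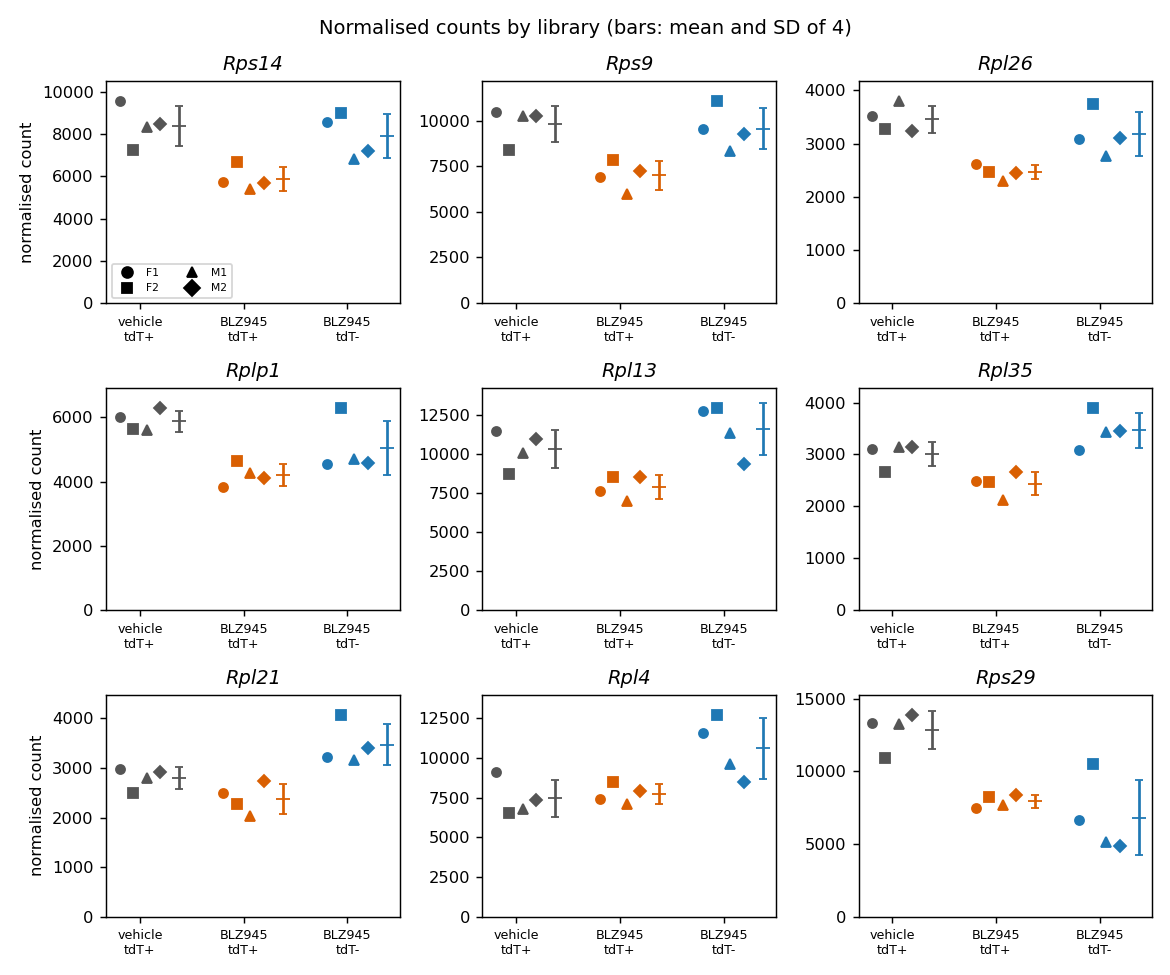
Normalised counts (linear axes from 0) of 9 named genes in each library, with the mean and SD of 4 per group. In the panels of Rps14, Rps9, Rpl26 and Rplp1 the BLZ945 tdT+ libraries lie below all vehicle libraries, the mean of Rpl4 is highest in the tdT- group, and Rps29 is highest in vehicle libraries.

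The number of called genes depended on which libraries estimated the spread. With only the 8 libraries of the comparison 40 of the 89 were called lower (1.16% of all genes), and with the tdT- library F2 left out, which takes no part in the comparison itself, 29 were (0.789% of all genes). Leaving out vehicle F1 or BLZ945 tdT+ M1 left 1 call, vehicle M1, vehicle M2 or BLZ945 tdT+ M2 left 3, and BLZ945 tdT+ F1 left 4, whereas 13 were called without vehicle F2 or tdT- M1 and 15 without tdT- M2. The median fold change stayed between -0.52 and -0.43 in all these fits. Mitochondrially encoded genes moved in the same direction, from a share of 0.906% ± 0.176 of counts in vehicle to 0.562% ± 0.0336 in BLZ945 tdT+ libraries, and DESeq2 called 4 of 22 lower and edgeR 0 (7 lower at an unadjusted p under 0.05 in both). Ighm was lower as well (-0.66 ± 0.13, DESeq2 adjusted p = 0.000222), and the part of the cells that express it was not tested. Column names mark the vehicle libraries and the BLZ945 libraries differently (pre and Post), and treatment and any difference in handling that this marks cannot be told apart.

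The second comparison asked how tdT- cells differed from tdT+ cells of the same BLZ945 mice. Ribosomal protein genes were higher in the tdT- cells, with a median log2 fold change of 0.43 against 0.00 over all genes tested. The fold change was above 0 for 86 of the 89 genes. DESeq2 called 20 higher and 0 lower, against 2.86% and 3.46% of all genes, and the groups did not overlap for 28 that were higher and 0 that were lower, against 4.56% and 4.79%. edgeR called 3 higher, Rpl13, Rpl35 and Rpl21, and 0 lower (1.04% and 1.71% of all genes). At an unadjusted p under 0.05, 49 were higher and 0 lower in DESeq2, against 1022 and 1147 of all 13724 genes. In edgeR 44 were higher and 0 lower at that level, against 846 and 1115 of all genes. The comparison shares its BLZ945 tdT+ libraries with the first, so the opposite signs are not separate evidence, and the third shares libraries with both.

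Rpl13, a large-subunit protein, had the smallest p. It stood at 7602, 8485, 6943 and 8533 in BLZ945 tdT+ and at 12722, 12922, 11330 and 9317 in tdT- libraries, with 11465, 8707, 10070 and 10934 in vehicle. The tdT- libraries lay above all BLZ945 tdT+ libraries and overlapped the vehicle range. The log2 fold change was 0.55 ± 0.13 (DESeq2 adjusted p = 0.000819, edgeR adjusted p = 0.0401).

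Rpl35, which sits at the tunnel exit of the large subunit, stood at 2485, 2464, 2125 and 2664 in BLZ945 tdT+ and at 3081, 3897, 3442 and 3444 in tdT- libraries, and its log2 fold change was 0.51 ± 0.12 (DESeq2 adjusted p = 0.00154, edgeR 0.0422). Rpl21 stood at 2495, 2268, 2023 and 2732 against 3222, 4072, 3169 and 3412 (0.54 ± 0.14, DESeq2 adjusted p = 0.00329, edgeR 0.0484), and its tdT- libraries were also above all vehicle libraries (2982, 2491, 2796 and 2910). Neither gene had a tdT- library within the BLZ945 tdT+ range.

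Other called genes included Rpl3, Rpl4, Rpl7a, Rpl14, Rpl17, Rpl18, Rpl26, Rplp0, Rps9, Rps14, Rps18, Rps19 and Rps23, at 0.37 (Rpl26) to 0.70 (Rpl17). Leaving out tdT- F2, the library with neutrophil, monocyte and red blood cell markers and the highest ribosomal share, lowered the median to 0.26 and left 11 calls higher and 1 lower, Rps29 (-0.51, DESeq2 adjusted p = 0.00191), where 2.89% of all genes were called higher and 4.75% lower. The 11 included Rpl3, Rpl13, Rpl17, Rpl18, Rpl21, Rpl35, Rps9 and Rps19, and all 11 were also called without any other single library. Calls numbered 12 without BLZ945 tdT+ F1, 13 without BLZ945 tdT+ M1 or tdT- F1, and 33 without tdT- M1. With the mouse as a block, since tdT- and tdT+ cells came from the same mice, 16 were called, and Rpl26 was no longer among them (0.36). Microglia markers were also higher in tdT- cells (5 of 5 called, median 1.58), as were Ighm (0.89 ± 0.13) and the monocyte gene Ccr2 (2.45 ± 0.38), and all 6 border macrophage markers were called lower (-2.81 to -0.59). Mitochondrially encoded genes went the other way from the ribosomal protein genes, with a median of -0.39, a share of 0.446% ± 0.133 against 0.562% ± 0.0336, and mt-Nd5 called lower by DESeq2 (-0.77 ± 0.20) and 0 by edgeR (4 lower at an unadjusted p under 0.05). The part of these cells and genes in the difference was not tested.

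The third comparison set tdT- cells against tdT+ cells of vehicle mice. As a group the ribosomal protein genes were close to vehicle in tdT- cells, with a median log2 fold change of -0.04 (0.03 over all genes) and 39 genes above and 50 below 0. DESeq2 called Rpl4 higher and Rps29 lower, against 3.29% and 3.51% of all genes. The groups did not overlap for 1 higher gene, Rpl21, and 1 lower gene, Rps29, against 4.82% and 4.87% of all genes. edgeR called 0 higher and 1 lower, Rps29 (1.46% and 1.79% of all genes). At an unadjusted p under 0.05 edgeR had 3 higher and 5 lower, against 904 and 1097 of all 13724 genes.

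Rps29, a small zinc-binding protein of the small subunit head (chr12:69204496-69205960, minus strand, GRCm39), had the smallest p of the members in this comparison. It stood at 13346, 10911, 13232 and 13886 in vehicle, 7466, 8218, 7694 and 8348 in BLZ945 tdT+ and 6649, 10500, 5168 and 4886 in tdT- libraries. Vehicle libraries were above all others, and tdT- F2 alone of the tdT- libraries exceeded the BLZ945 tdT+ range. Its log2 fold change against vehicle was -0.92 ± 0.20 in tdT- cells (DESeq2 adjusted p = 0.000166, edgeR 0.0189), kept without each of the 12 libraries, and -1.21 without tdT- F2. As a percentage of the counts on the 89 genes, a measure that does not depend on library scaling, Rps29 made up 3.83% to 4.02% in vehicle, 3.13% to 3.49% in BLZ945 tdT+ and 1.85% to 2.56% in tdT- libraries. These ranges did not overlap.

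Rpl4, a large-subunit protein that reaches into the exit tunnel (chr9:64080657-64085948, plus strand, GRCm39), stood at 9101, 6527, 6789 and 7382 in vehicle, 7399, 8490, 7084 and 7929 in BLZ945 tdT+ and 11601, 12721, 9648 and 8458 in tdT- libraries. The tdT- libraries overlapped both other groups at M2. The log2 fold change against vehicle was 0.51 ± 0.15 (DESeq2 adjusted p = 0.0116), and the call was lost without vehicle F2, vehicle M1, tdT- F1 or tdT- F2. Rpl4 was at 0.05 ± 0.15 in BLZ945 tdT+ against vehicle cells, where most members were lower.

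Without tdT- F2 the median in this comparison was -0.21, and 8 genes were called lower and 0 higher, against 4.72% and 3.53% of all genes. The 8 were Rps29, Rps28 (-0.83), Rpl37a (-0.62), Rplp2 (-0.55), Rps25 (-0.45), Rps27 (-0.42), Rplp1 (-0.36) and Rpl10 (-0.32). Their coding lengths ran from 168 bases (Rps29) to 642 bases (Rpl10). With all 4 tdT- libraries Rps29 was called lower as well, and the other genes of the 8 were not called. Mitochondrially encoded genes were at 0.446% ± 0.133 of counts in tdT- libraries, lower than in vehicle, with 9 of 22 called lower by DESeq2 and 8 by edgeR.

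**Figure D3:**
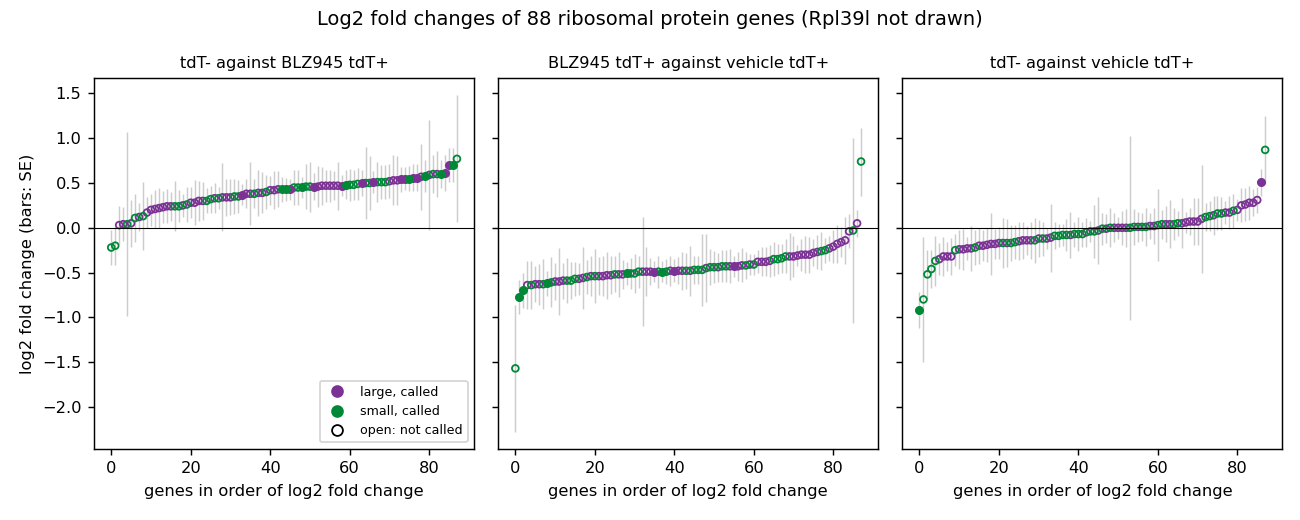
Log2 fold change with SE of 88 genes (Rpl39l, with an SE above 2, is not drawn) in each comparison, sorted within each panel, with filled points for DESeq2 calls. Most genes lie above 0 in tdT- against BLZ945 tdT+ cells, most below 0 in BLZ945 tdT+ against vehicle cells, and on both sides of 0 in tdT- against vehicle cells.

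Large- and small-subunit genes had like medians. In BLZ945 tdT+ against vehicle cells these were -0.44 (3 of 52 called lower) and -0.49 (5 of 37), in tdT- against BLZ945 tdT+ cells 0.41 (12 called higher) and 0.45 (8), and in tdT- against vehicle cells -0.02 and -0.07 (1 called in each). Without tdT- F2 the large- and small-subunit medians were 0.26 (7 called higher) and 0.24 (4 higher, 1 lower) against BLZ945 tdT+ and -0.21 and -0.21 (4 lower in each) against vehicle cells. The ratio of large- to small-subunit counts was 1.21, 1.17, 1.21 and 1.16 in vehicle, 1.30, 1.25, 1.27 and 1.29 in BLZ945 tdT+ and 1.29, 1.25, 1.34 and 1.29 in tdT- libraries. Vehicle libraries were below both BLZ945 groups, which overlapped. Without Rps29 the ranges were 1.28 to 1.33 in vehicle, 1.35 to 1.40 in BLZ945 tdT+ and 1.32 to 1.40 in tdT- libraries, so vehicle and tdT- libraries then met.

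The stalk proteins Rplp0, Rplp1 and Rplp2, which recruit the elongation factors, differed from vehicle in BLZ945 tdT+ cells by -0.43 ± 0.12, -0.48 ± 0.13 and -0.57 ± 0.18, the last not called (DESeq2 adjusted p = 0.10). Rplp2 stood at 4500, 4276, 4344 and 4429 in vehicle and at 2839, 3146, 2662 and 3171 in BLZ945 tdT+ libraries, which did not overlap. In tdT- against BLZ945 tdT+ cells only Rplp0 of the 3 was called (0.43 ± 0.12), with Rplp1 at 0.25 ± 0.13 and Rplp2 at 0.23 ± 0.18. The Rplp0 call was not made by edgeR (adjusted p = 0.0977) and was lost without tdT- F2 or BLZ945 tdT+ M1, and without tdT- F2 the 3 were at 0.33, 0.12 and 0.02. The partners of the 5S particle, Rpl5 and Rpl11, which bind Mdm2 when ribosome assembly fails, were not called in any comparison. Rpl5 was at -0.21 ± 0.18 and Rpl11 at -0.43 ± 0.19 in BLZ945 tdT+ against vehicle cells.

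Rps6, the substrate of the S6 kinases, was at -0.34 ± 0.16 in BLZ945 tdT+ against vehicle and at 0.38 ± 0.16 in tdT- against BLZ945 tdT+ cells, without a call. Rps19, the gene most often mutated in Diamond-Blackfan anaemia, was called higher in tdT- than in BLZ945 tdT+ cells (0.60 ± 0.16, DESeq2 adjusted p = 0.0051). Rpsa, which is also known as the laminin receptor, was at 0.51 ± 0.19, and Rps27a, which is made as a fusion with ubiquitin, at 0.48 ± 0.17 in that comparison, neither called. Without tdT- F2 Rps6 was at 0.26, Rps19 at 0.44 (still called), Rpsa at 0.34 and Rps27a at 0.28. Rpl13a, known as part of an interferon-gamma-induced translation silencing complex in myeloid cells, was at 0.47 ± 0.27 and not called.

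Paralogues did not always move with their partners in size, but the difference between them was not tested. In BLZ945 tdT+ against vehicle cells Rpl22 was at -0.63 ± 0.20 and Rpl22l1 at -0.14 ± 0.26, Rpl7 at -0.37 ± 0.18 and Rpl7l1 at -0.04 ± 0.19, and Rps27 at -0.55 ± 0.19 and Rps27l at -0.25 ± 0.14. Of these only Rpl22, Rpl7 and Rps27 had groups that did not overlap. Rpl36a was at -0.53 ± 0.26 and Rpl36al at -0.32 ± 0.26, Rps4x at -0.43 ± 0.18 and Rps4l at -0.26 ± 0.21, Rpl3 at -0.28 ± 0.15, Rpl10 at -0.38 ± 0.16 and Rpl39 at -0.48 ± 0.28, none of them called. Rps27rt was at -0.47 ± 0.40. Rpl39l was at 0, 35.7, 0 and 21.6 normalised counts in vehicle, 116, 32.3, 1.03 and 25.2 in BLZ945 tdT+ and 0, 0, 30.6 and 18.2 in tdT- libraries, too few for a direction. Rps19bp1 stood at 427, 180, 332 and 178 in vehicle, 460, 497, 428 and 480 in BLZ945 tdT+ and 387, 353, 523 and 771 in tdT- libraries. It was the only member whose BLZ945 tdT+ libraries all lay above all vehicle libraries (428 against 427 at the closest), without a call (0.74 ± 0.38).

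Levels were compared between genes per kilobase of merged exons, which the deposited table gives as the length. In vehicle cells Rps29 was highest at 18533 ± 1904 normalised counts per kilobase (SD, n = 4), followed by Rplp1 at 11791 ± 651, Rpl32 at 11765 ± 1131, and Rps3a1 was also among the 5 highest at 7096 ± 485. The libraries of Rplp1 and Rpl32 overlapped, those of Rps29 lay above both, and those of Rps3a1 lay below both. The lowest were Rpl13a at 246 ± 58.5, Rpl32l at 97.9 ± 11.1, Rps3a2 at 70.9 ± 20.9, Rpl39l at 17.2 ± 21.1 and Rps3a3 at 16.9 ± 2.93. Rpl32l, Rps3a2 and Rps3a3 are near-copies of Rpl32 and Rps3a1. Since reads that map to several places were dropped, levels of members with near-identical copies are uncertain, and the order is that of uniquely mapped reads. By coding length in place of the deposited length, 2 of the 5 highest stayed among them. Of the 5 lowest, Rpl32l, Rps3a2 and Rps3a3 have no coding length and could not be ranked, and Rpl13a and Rpl39l came to ranks 80 and 84 of 84.

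**Figure D4:**
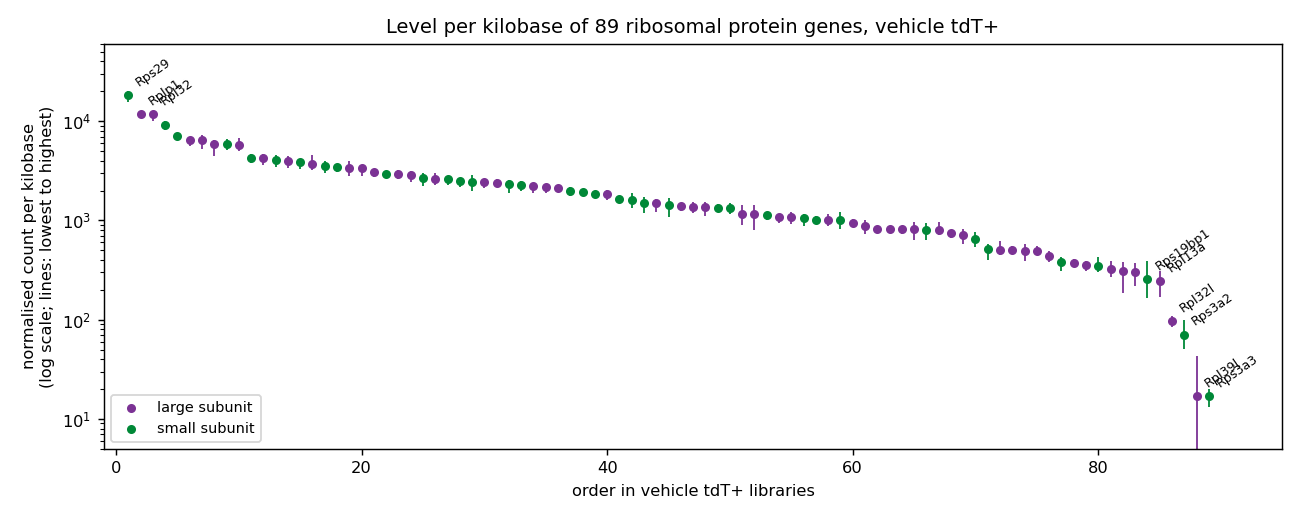
Mean normalised count per kilobase of merged exons (log axis) in the 4 vehicle tdT+ libraries for the 89 genes in order, with lines from the lowest to the highest library (the line of Rpl39l reaches 0 and is drawn to the axis limit). Rps29 leads at 18533, and a few near-copies and low paralogues lie under 100.

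The deposited length had a median of 1726 bases over the members (374 to 6270) against 4065 over all genes past the filter, and the coding length (GENCODE M21, 84 members) a median of 453 bases against 1374. Over the members the log2 fold change followed the deposited length weakly, with Spearman's rho of 0.10, 0.19 and 0.20 in BLZ945 tdT+ against vehicle, tdT- against BLZ945 tdT+ and tdT- against vehicle cells. With the coding length rho was 0.37, 0.33 and 0.49, so members with short coding sequences were the lower ones. Over all genes with a coding length rho was 0.17, -0.19 and -0.07. These are correlations across genes of the same libraries, which are not independent, and no p is given.

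In tdT- against vehicle cells the 11 members with coding sequences under 300 bases had a median log2 fold change of -0.23 (without tdT- F2, -0.45), the 48 of 300 to 600 bases -0.05 (-0.21) and the 25 above 600 bases 0.02 (-0.10). In BLZ945 tdT+ against vehicle cells the medians were -0.53, -0.48 and -0.41, and in tdT- against BLZ945 tdT+ cells 0.24, 0.43 and 0.47 (without tdT- F2, 0.02, 0.27 and 0.34). Other genes with coding sequences under 1000 bases (3663 genes) had medians of -0.07 in BLZ945 tdT+ against vehicle and 0.11 in tdT- against BLZ945 tdT+ cells, in the same direction as the members and smaller. The part of transcript length in the differences was not tested.

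**Figure D5:**
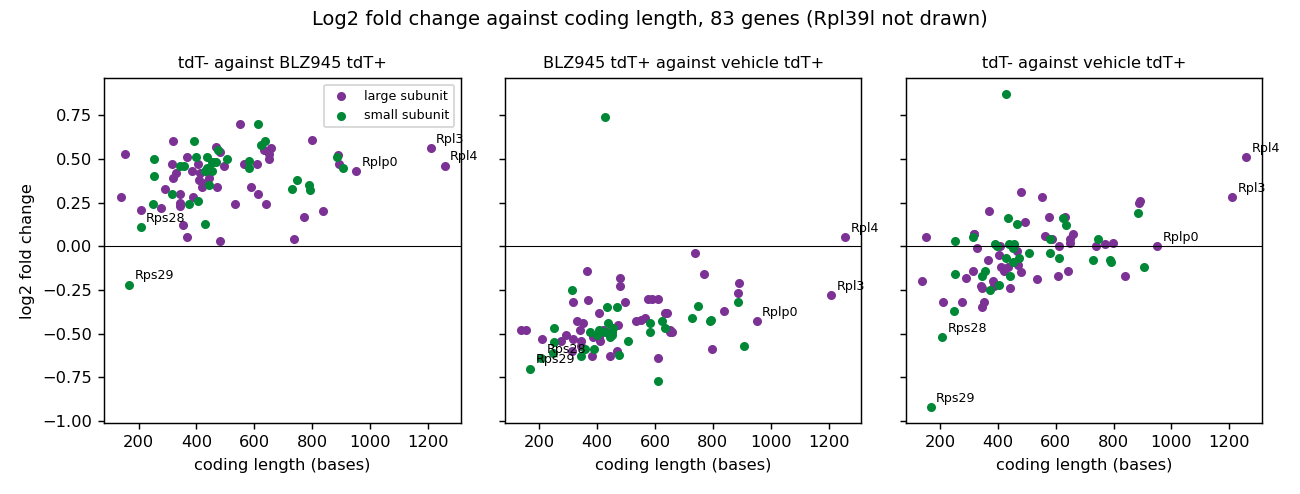
Log2 fold change of 83 genes against coding length in bases, by subunit (Rpl39l not drawn). In tdT- against vehicle cells (right) Rps29, with 168 bases, is lowest at -0.92, while Rpl4, the longest with 1257 bases, is at 0.51.

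Other genes of translation were read in the same fits. Rack1, a scaffold protein on the small subunit, stood at 4247, 3461, 3536 and 4103 in vehicle, 2527, 3104, 2662 and 2388 in BLZ945 tdT+ and 4150, 5040, 3414 and 3232 in tdT- libraries, with BLZ945 tdT+ below both other groups. It was called higher in tdT- than in BLZ945 tdT+ cells (0.57 ± 0.16, DESeq2 adjusted p = 0.0131), though not by edgeR or without tdT- F2, and was at -0.52 ± 0.16 in BLZ945 tdT+ against vehicle cells (adjusted p = 0.0976). Fau, which is made as a fusion with a ubiquitin-like protein, was at -0.45 ± 0.15 there, not called. Of 18 elongation factors and other translation genes DESeq2 and edgeR called 0 in any comparison with all 12 libraries. Their medians were -0.32, 0.32 and -0.07 in BLZ945 tdT+ against vehicle, tdT- against BLZ945 tdT+ and tdT- against vehicle cells, and at an unadjusted p under 0.05 DESeq2 had 8 lower, 7 higher and 1 lower and edgeR 8 lower, 6 higher and 1 lower. Without tdT- F2 the median of tdT- against BLZ945 tdT+ cells was 0.16. DESeq2 then called 4 lower in BLZ945 tdT+ against vehicle, 1 lower in tdT- against BLZ945 tdT+ and 2 lower in tdT- against vehicle cells. The shares of all genes called lower in these fits were 0.789%, 4.75% and 4.72%.

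Genes of ribosome biogenesis (30) did not share the lower level in BLZ945 tdT+ cells. Their median was 0.22 against vehicle with 0 called by DESeq2 and by edgeR (1 at an unadjusted p under 0.05 in DESeq2 and 2 in edgeR), and 20 were above 0. In tdT- against vehicle cells the median was 0.48, and Nolc1, a nucleolar phosphoprotein, was called higher (1.03 ± 0.32, DESeq2 adjusted p = 0.0255) and Nmd3, the export adaptor of the large subunit, lower (-0.66 ± 0.20, adjusted p = 0.0226). In tdT- against BLZ945 tdT+ cells Ncl (nucleolin) was called higher (0.47 ± 0.15) and Nmd3 lower (-0.85 ± 0.20). Of these edgeR called only Nmd3 against BLZ945 tdT+ cells, and without tdT- F2 DESeq2 called neither Ncl there nor Nmd3 against vehicle cells. In either tdT- comparison 1 of the 30 was called higher and 1 lower. DESeq2 called 3.29% of all genes higher and 3.51% lower against vehicle cells, and 2.86% and 3.46% against BLZ945 tdT+ cells. The counts for this list were near those shares. Of 18 tested mTOR and Myc regulators Myc alone was called, in tdT- against vehicle cells (1.07 ± 0.24, DESeq2 adjusted p = 0.000475), and by edgeR as well. Myc stood at 918, 1294, 960 and 970 in vehicle, 2187, 2226, 1461 and 1423 in BLZ945 tdT+ and 2937, 2261, 1943 and 1563 in tdT- libraries. Both BLZ945 groups thus lay above all vehicle libraries, though Myc was not called in BLZ945 tdT+ against vehicle cells. The list had medians of 0.03, -0.07 and 0.20, with 2 higher, 1 higher and 2 lower, and 1 higher and 2 lower at an unadjusted p under 0.05 in DESeq2 (1 higher, 1 lower, and 1 higher and 2 lower in edgeR).

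Mitochondrial ribosomal proteins serve the separate ribosomes of mitochondria. They took 0.257% to 0.289% of counts in vehicle, 0.239% to 0.253% in BLZ945 tdT+ and 0.266% to 0.290% in tdT- libraries. All BLZ945 tdT+ libraries thus lay below all others. Of 79 tested, Mrpl40 (0.70 ± 0.18), Mrpl33 (0.66 ± 0.22) and Mrps30 (0.55 ± 0.17) were called higher and Mrpl50 (-0.80 ± 0.23) lower in tdT- against BLZ945 tdT+ cells by DESeq2, with 0 called by edgeR (11 higher and 2 lower at an unadjusted p under 0.05). DESeq2 called 2.86% of all genes higher and 3.46% lower there, so these counts of calls were near or below the background. The medians of the 79 were -0.12, 0.23 and 0.14. In BLZ945 tdT+ against vehicle cells DESeq2 called 0, with 0 higher and 4 lower at an unadjusted p under 0.05, and edgeR 0, with 0 and 3. In tdT- against vehicle cells both called 0, with 6 higher and 1 lower (DESeq2) and 4 and 1 (edgeR) at that level.

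Pseudogene rows give a check on reads that stray from these genes. The 322 names with -ps took 0.0118% to 0.0263% of counts, and 129 of them had 0 counts in all libraries. The 63 past the filter had medians of -0.50 in BLZ945 tdT+ against vehicle and 0.54 in tdT- against BLZ945 tdT+ cells, near those of the ribosomal protein genes, with 0 called by DESeq2 and by edgeR in the 3 comparisons (1 lower, 1 higher and 0 at an unadjusted p under 0.05 in DESeq2, and 1 lower, 0 and 0 in edgeR). Whether these counts are pseudogene transcripts or reads of the parent genes was not tested.

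Mice labelled F and M were compared for the size of each difference. edgeR's test of the interaction called 0 members in any comparison, with 16 of 89 at an unadjusted p under 0.05 in tdT- against BLZ945 tdT+, 1 in BLZ945 tdT+ against vehicle and 36 in tdT- against vehicle cells, where 7.17%, 3.27% and 8.04% of all genes passed that level. The DESeq2 interaction called 3 (Rpl39, Rps24 and Rpsa), 0 and 9 (Rpl10, Rpl23, Rpl36a, Rpl37a, Rps21, Rps24, Rps27, Rps29 and Rpsa), against 2.68%, 0.532% and 2.88% of all genes, so that the count of 3 was near the background. The F mice include tdT- F2, and with 2 mice per letter the letter and that library cannot be told apart.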

How the data were processed

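The authors deposited raw counts of reads per gene, not normalised, with a gene length. Per the file headers and the submitters' processing notes, reads were aligned with STAR 2.7.11a and counted with featureCounts 2.0.6 over exons of GENCODE M33 (GRCm39), without strand and without multi-mapping reads, from SMART-Seq cDNA. Near-identical copies thus lose reads, and reads of genes that overlap on the 2 strands are not told apart. All 12 columns of counts were used and 0 were left over. One vehicle column named M1 carries the library number of M2 and was assigned by that number.

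Genes with at least 10 counts in at least 4 libraries (13724) were tested with DESeq2 1.42.0 in R 4.3.3, as a two-sided Wald test on all 12 libraries with group as the only term. Benjamini-Hochberg adjustment ran over all genes with an adjusted p (13633), and called means an adjusted p of at most 0.05. Fold changes are unshrunken log2 values ± SE, and normalised counts are counts divided by median-of-ratios size factors. On simulated counts, scored for tdT- against BLZ945 tdT+ cells only, DESeq2 called more unchanged genes than its adjusted p allows. There edgeR 4.0.16 (quasi-likelihood, TMM) stayed close to it, so both are given. Members and lists were chosen with earlier results of these data known. Named genes are a fixed panel, the 5 members with the smallest p per comparison and direction, and the 5 highest and lowest per kilobase, and of other lists at most 3 called genes per direction. Members outside this rule are named where a count is small or a library is left out, after their values were seen.

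The tdT- and tdT+ libraries of a BLZ945 mouse are paired by the mouse label. Their deviations from the group means had correlations across all genes of -0.00463 to 0.0352, and across the members of -0.748, -0.174, -0.72 and 0.0256 for F1, F2, M1 and M2. No pair of replicates was near sampling noise (chi-square per degree of freedom of at least 45.6 over 18 pairs). The labels name separate mice. Some genes that the rule for named genes takes are not reported here by name.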

Additional observations from a re-analysis of the deposited data

Results flagged for a closer look

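For the named genes a library stood apart from the other 3 of its group in 6 of 132 groups of 4. They were checked by Dixon's test at the 95% level, which chance passes in about 1 group in 20. Vehicle F2 was the lowest vehicle library for Rpl32 (9701 normalised counts), Rps9 (8369) and Rpl35 (2656). Among the tdT- libraries F2 was the highest for Rplp1 (6293) and F1 the lowest for Rpl36al (364). BLZ945 tdT+ M1 was the highest of its group for Rps3a3 (31.8). Over all members 12 of 267 groups passed the limit, and in 6 of the 12 vehicle F2 was the lowest. Genes of 1 library are not independent, so the chance rate is only a rough guide.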

How the results depend on the processing

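Limits: 4 mice per group and counts of uniquely mapped reads from amplified cDNA bound these results. The tdT- library F2 had neutrophil, monocyte and red blood cell markers, and all 4 tdT- libraries had higher microglia markers than any tdT+ library. DESeq2 called many unchanged genes in counts simulated for tdT- against BLZ945 tdT+ cells. No member reached a shrunken (apeglm) log2 fold change of 1 with an adjusted p of at most 0.05, so that rule called 0 in each comparison and direction. For tdT- against BLZ945 tdT+ cells, edgeR called 3 higher in place of 20, and leaving out libraries gave 11 to 33 higher and 0 to 1 lower. For BLZ945 tdT+ against vehicle cells, edgeR called 0 lower in place of 8, size factors from total counts 20, the 8 libraries alone 40, the label as a replicate block on them 32 (vehicle and BLZ945 mice share only the label, and all 8 calls were among the 32), and leaving out libraries 1 to 29. For tdT- against vehicle cells, edgeR and total-count factors called 0 higher in place of 1, and leaving out libraries gave 0 to 1 higher and 1 to 8 lower. With the mouse as a block, tdT- against BLZ945 tdT+ cells had 16 calls, 15 of them shared with the 20. With the shared label alone as a block, tdT- against vehicle cells kept 1 higher and 1 lower. The DESeq2 interaction with the letter called 3 and 9 members in place of 0 in the comparisons of tdT- with BLZ945 tdT+ and with vehicle cells. TMM factors, factors without the members, no filter and the letter as a term kept each count within 1.5 times. The scalings moved the median of all genes by less than 0.1. Of 460 refits of called named genes, 369 kept the call, 91 lost it and 0 changed sign. The cause of these changes was not tested. Replacing the deposited length by the coding length, chosen after seeing the data, kept 2 of the 5 highest members and both of the 5 lowest that have a coding length, and the lists and length medians without tdT- F2 were also added then. The planned coding length from RefSeq proteins was not run.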
